A study of Mus musculus with 33 samples.

Results

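Described here are 6 genes of the mouse heart muscle thick filament, namely the myosin heavy chains Myh6 and Myh7 and the myosin light chains Myl2, Myl7, Myl3 and Myl4. They were chosen by symbol, with earlier results of these data known, and all 6 were found among the 14862 gene rows of the count table. Each sample is 1 cell from the ventricles of mice carrying mAG-hGem, the green geminin reporter of the FUCCI cell cycle system, a protein present from DNA replication until mitosis. The groups are 10 mAG-hGem positive and 11 mAG-hGem negative cells of embryonic day 14.5 (E14.5) and 6 positive and 6 negative cells of postnatal day 5 (P5), all freshly isolated from transgenic animals for which the labels give no treatment. Per the labels, messenger RNA was copied to cDNA and amplified in antisense form, and a cell was kept when PCR detected the cardiomyocyte gene Tnnt2 and did not detect a marker of other cells. The labels name no animal, so each group stands for 1 sample, no difference below has a replicate check, and no test between groups was made.

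A sarcomeric myosin molecule pairs heavy chains, which carry the ATPase motor, with a regulatory and an essential light chain bound to the neck of each motor. Myh6 encodes the fast alpha heavy chain and Myh7 the slower beta heavy chain, and the mouse ventricle is known to exchange beta for alpha around birth. Myl2 and Myl3 encode the ventricular regulatory and essential light chains, and Myl7 and Myl4 their atrial counterparts, of which Myl4 is also known from the embryonic ventricle.

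The heavy chain genes lie side by side on chromosome 14 of GRCm38 (mm10), both on the minus strand. Per GENCODE M21, Myh7 spans chr14:54970684-54994626 with 41 exons and Myh6 spans chr14:54941921-54966927 with 39 exons, and 3756 bases separate them. Mir208a lies in an intron of Myh6 and Mir208b in an intron of Myh7. Myl2 is at chr5:122100951-122113472 and Myl3 at chr9:110741861-110769798. Myl4 is at chr11:104550663-104595753 and Myl7 at chr11:5896637-5898782. An isoform share depends on telling the 2 genes of a pair apart, so coding exon stretches of 90 bases are shown for each pair, 5′ to 3′ on the coding strand, with the bases that differ between the pair in capitals.
Myh6 (chr14:54952247-54952336, strand -, exon 25): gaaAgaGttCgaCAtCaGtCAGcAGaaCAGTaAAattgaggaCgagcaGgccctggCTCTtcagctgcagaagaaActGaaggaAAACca
Myh7 (chr14:54980322-54980411, strand -, exon 27): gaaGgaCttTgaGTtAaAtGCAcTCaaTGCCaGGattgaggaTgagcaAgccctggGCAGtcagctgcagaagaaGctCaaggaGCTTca
Myl2 (chr5:122103831-122103920, strand +, exon 4): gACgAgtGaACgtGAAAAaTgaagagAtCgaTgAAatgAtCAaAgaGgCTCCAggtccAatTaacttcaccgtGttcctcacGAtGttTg
Myl7 (chr11:5897847-5897936, strand -, exon 4): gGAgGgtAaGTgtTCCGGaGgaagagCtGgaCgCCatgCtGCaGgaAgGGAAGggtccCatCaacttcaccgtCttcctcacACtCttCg
Myl3 (chr9:110767908-110767997, strand +, exon 4): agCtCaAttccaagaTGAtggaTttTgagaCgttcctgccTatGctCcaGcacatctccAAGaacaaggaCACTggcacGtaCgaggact
Myl4 (chr11:104584439-104584528, strand +, exon 6): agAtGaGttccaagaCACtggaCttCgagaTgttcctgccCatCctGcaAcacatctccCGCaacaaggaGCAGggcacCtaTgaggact

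These stretches were picked as the ungapped 90 bases within a coding exon that differ most, so they are not typical of the genes. In them 30 of 90 bases differ for the heavy chains, 34 for the regulatory and 22 for the essential light chains. Over the whole coding sequence the heavy chains are closer, with 91.5% identical aligned bases, against 61.7% for Myl2 and Myl7 and 73.2% for Myl3 and Myl4. Of all 50-base windows of the coding sequence, 23.8% of those of Myh6 and 23.9% of those of Myh7 occur unchanged in the other gene, and none of those of the light chains occurs in another gene. How reads from such windows were counted is not given in the sources used here, so the heavy chain shares are uncertain to the extent that such reads were given to the wrong gene or dropped. Exons on the opposite strand overlap 5.62% (Mhrt), 6.07% (Gm31251) and 1.65% (Gm29015) of the exon bases of Myh7, 4.65% of Myl3 (Pth1r), 3.08% of Myl2 (Ccdc63), 1.69% of Myh6 (Gm49130) and 0.0647% of Myl4 (Gm22000). Without a stated strand setting, reads of these partners cannot be told apart from those of the myosin genes.

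Depth ran from 2.55 to 38.5 M reads per cell (1 M is 1000000 reads), with medians of 11.5 and 16.9 M in positive and negative cells of E14.5 and of 13.9 and 12.7 M in those of P5. Levels are reads per 1000000 reads of the cell (CPM), or of the summed cells of a group. The summed CPM of 10 cardiomyocyte markers, none of them a myosin, exceeded that of every other marker list in all 10 positive and 10 of 11 negative cells of E14.5 and in 5 of 6 positive cells of P5. The exceptions were N10, an E14.5 negative cell with 46224 CPM of fibroblast and mural markers beside 20228 CPM of cardiomyocyte markers, and L2P12, a P5 positive cell with 13416 CPM of endothelial and 55.2 CPM of cardiomyocyte markers. The lead in N10 rested on Postn, at 41228 CPM, with Col3a1 next in that list at 2432 CPM. Its cardiomyocyte markers lay within the range of the E14.5 negative cells, 12845 to 32293 CPM. No P5 negative cell was led by cardiomyocyte markers, which summed to 0.276 to 3282 CPM there, and Ldb3 was at 0 in all 6. The highest sum was that of L2N4, where Tnnc1 alone had 3266 CPM, with Actc1 at 9.91 and Tnnt2 at 1.36 CPM. The next highest was L2N12 at 344 CPM. Comparisons with the P5 negative cells therefore set different cell types side by side. The labels describe all 33 cells as cardiomyocytes, but 8 of them were led by other markers.

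**Figure D1:**
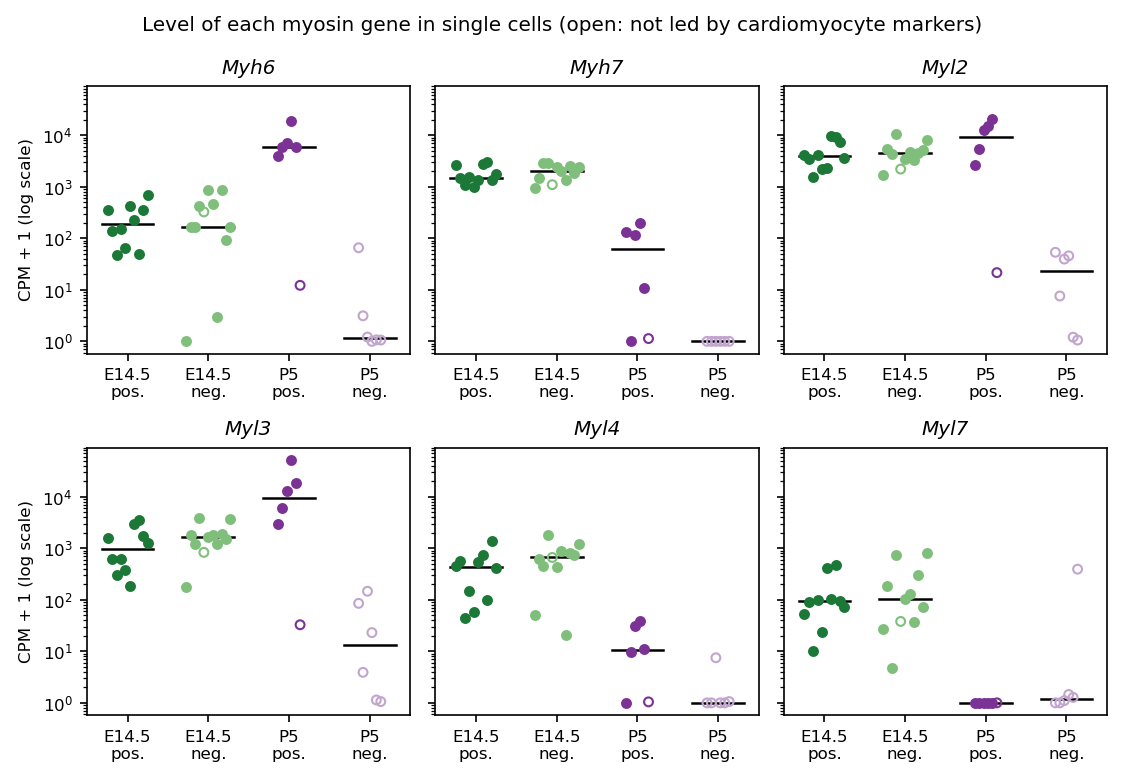
Level of each of the 6 genes in single cells, as CPM + 1 on a log scale, by group. Each point is 1 cell, open points are cells not led by cardiomyocyte markers, and lines are medians. Myh6 stood at 4044 to 18646 CPM in the 5 filled P5 positive cells and at no more than 869 CPM in any E14.5 cell, while Myh7 showed the opposite order.

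The first comparison asks how the myosin genes differ between cycling cells of the embryonic and the newborn heart. Between E14.5 and P5 positive cells the heavy chains changed order, with Myh6 33.1-fold higher and Myh7 25.6-fold lower at P5. Among light chains the ventricular Myl3 was 11.2-fold higher, Myl2 was 1.68-fold higher, Myl4 was 25.8-fold lower and Myl7 had no read at P5. Of the 6 genes, 2 were at least 2-fold higher and 3 at least 2-fold lower. Of 12262 genes with at least 10 reads, 30.3% were at least 2-fold higher and 40.9% at least 2-fold lower, so a 2-fold difference by itself was common.

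Myh6 ranged from 45.7 CPM (G5) to 696 CPM (G29) in the 10 E14.5 positive cells, with a median of 186 CPM. In P5 positive cells it was 4044 CPM in L1P5, 5918 in L2P10, 5920 in L2P3, 7272 in L2P7, 18646 in L2P8 and 11.2 in the endothelial marker cell L2P12. All 5 P5 cells led by cardiomyocyte markers stood above the highest of the 21 E14.5 cells, N21 at 869 CPM. In the summed reads Myh6 went from 251 CPM (exact 95% Poisson interval 248 to 253) to 8303 CPM (8284 to 8322), a log2 ratio of 5.05 (exact binomial interval 5.04 to 5.06). These intervals cover counting error only, and amplified reads are not independent molecules. Leaving out L2P8, which held 65.2% of the Myh6 reads of its group, gave 4.02.

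Myh7 was the steadiest of the 6 genes at E14.5. It ranged from 992 CPM (G8) to 3087 CPM (G27) over positive cells, a 3.11-fold span, with a median of 1513 CPM. The same gene spanned 3.07-fold over the negative cells, from 967 CPM (N3) to 2965 CPM (N7), where Myl2 spanned 6.21-fold and Myl3 22.5-fold. In P5 positive cells Myh7 was 131 CPM in L1P5, 10.1 in L2P10, 0.133 in L2P12, 114 in L2P7 and 202 in L2P8, with no read in L2P3. No P5 cell reached the lowest E14.5 cell. The summed level was 2029 CPM (2022 to 2036) at E14.5 and 79.3 CPM (77.5 to 81.1) at P5, a log2 ratio of -4.68 (-4.71 to -4.64). Without L2P8 it was -6.13.

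Myl2, the ventricular regulatory light chain, was high at both ages. It ranged from 1555 CPM (G5) to 9550 CPM (G25) in E14.5 positive cells, with a median of 3930 CPM. At P5 it was 2677 CPM in L1P5, 5458 in L2P3, 13010 in L2P7, 15270 in L2P8, 21280 in L2P10 and 20.6 in L2P12. The ranges overlapped, and 3 of the 5 P5 cells led by cardiomyocyte markers stood above all 21 E14.5 cells. The log2 ratio was 0.75 (0.75 to 0.75), from 5997 to 10087 CPM. It passed the 2-fold line without L2P12, at 1.15, and without G27, at 1.05.

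Myl7, the atrial regulatory light chain, was read in all 21 E14.5 cells. It ranged from 9.24 CPM (G5) to 479 CPM (G27) in positive cells, with a median of 92.5 CPM. In the 6 P5 positive cells there was no read of Myl7 in 92.1 M reads, which allows at most 0.0326 CPM by a floor of 3 reads over the group. Against that floor Myl7 was at least 5925-fold lower than at E14.5, where the summed level was 193 CPM. Since 60.4% of its E14.5 positive reads came from G27, the log2 bound of -12.53 became -11.60 without that cell.

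Myl3, the ventricular essential light chain, ranged from 186 CPM (G10) to 3632 CPM (G27) in E14.5 positive cells, with a median of 962 CPM. At P5 it was 2948 CPM in L1P5, 6090 in L2P3, 13246 in L2P7, 18301 in L2P10, 52861 in L2P8 and 31.9 in L2P12. Summed over the P5 positive cells, Myl3 was the gene with the most reads of all genes, at 20741 CPM (20711 to 20770), against 1848 CPM (1841 to 1854) and rank 68 at E14.5. The log2 ratio was 3.49 (3.48 to 3.49). L2P8 held 74.0% of these P5 reads, and without it the ratio was 2.04 and Myl3 ranked 9, below Myl2 at rank 6.

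Myl4, the atrial and embryonic essential light chain, ranged from 43.9 CPM (G5) to 1377 CPM (G28) in E14.5 positive cells, with a median of 426 CPM. At P5 it was 8.79 CPM in L2P3, 10 in L2P10, 30.7 in L2P7, 38.7 in L2P8 and 0.0444 in L2P12, with no read in L1P5. All P5 positive cells lay below the lowest E14.5 positive cell. The P5 cells L2P7 and L2P8 still exceeded the E14.5 negative cell N24, at 19.7 CPM. The log2 ratio was -4.69 (-4.76 to -4.62), with -5.57 without L2P8 and -4.08 without G28.

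Without L2P12 the ratios were 5.45 for Myh6, -4.27 for Myh7, 3.89 for Myl3 and -4.28 for Myl4, and the bound of Myl7 was -12.13. All 5 kept the side of the 2-fold line they had with it.

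**Figure D2:**
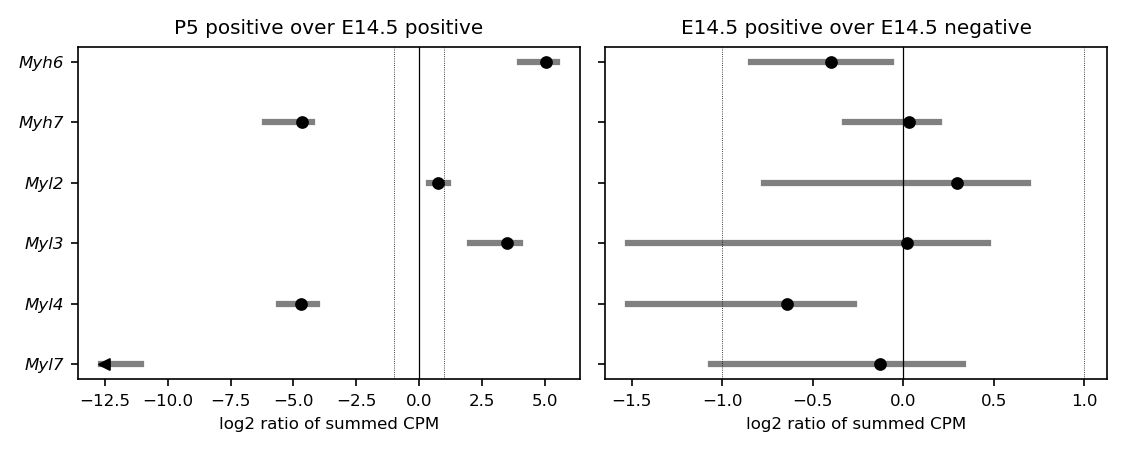
Log2 ratio of summed CPM for P5 positive over E14.5 positive cells (left) and for positive over negative cells of E14.5 (right). Points are all cells, an arrowhead is a bound against the floor, bars span the values under every alternative and with each cell left out, and dotted lines mark 2-fold. The bars on the left stay on 1 side of 0 for all 6 genes, from 5.05 for Myh6 to -12.53 for Myl7, whereas on the right those of Myh7, Myl2, Myl3 and Myl7 cross 0.

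Isoform shares compare the reads of 2 genes within the same cell. The share of Myh6 in the reads of Myh6 and Myh7 was 11% (39626 of 360306 reads, exact Clopper-Pearson interval 10.9 to 11.1%) in E14.5 positive cells and 99.1% (99.0 to 99.1%) in P5 positive cells. Single E14.5 positive cells ranged from 1.58% (G27) over a median of 8.60% to 28.4% (G29). Single P5 positive cells ranged from 96.9% (L1P5) to 100% (L2P3), a span far above every E14.5 cell. No cell with at least 100 heavy chain reads had a share between 28.4% and 96.9%. L2P10, the one P5 positive cell with a low sum of 20 mitotic genes (28 CPM, where the other 5 had 8509 CPM or more), had a Myh6 share of 99.8%.

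The essential light chains showed the widest spread between embryonic cells. Myl3 made up 79.7% (79.6 to 79.8%) of the reads of Myl3 and Myl4 in E14.5 positive cells, and single cells ranged from 25.7% (G10) over a median of 78.8% to 97.4% (G27). G10 was the only cell of 21 at E14.5 in which Myl4 exceeded Myl3. In P5 positive cells the Myl3 share was 99.8 to 100% in each of the 6 cells.

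For the regulatory light chains the ventricular form was the main one in all E14.5 cells and all P5 positive cells. Myl2 made up 96.9% (96.8 to 96.9%) of the reads of Myl2 and Myl7 in E14.5 positive cells, from 85.0% (G10) over a median of 98.4% to 99.4% (G5). In P5 positive cells it was 929319 of 929319 reads, and the interval allows at most 0.000397% of Myl7. For comparison, the troponin I pair, in which Tnni3 is the mature and Tnni1 the fetal form, was not near either end at P5. Tnni3 made up 42.9% of the pair in E14.5 positive and 56.9% in P5 positive cells, with P5 cells from 43.0% to 92.7%.

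**Figure D3:**
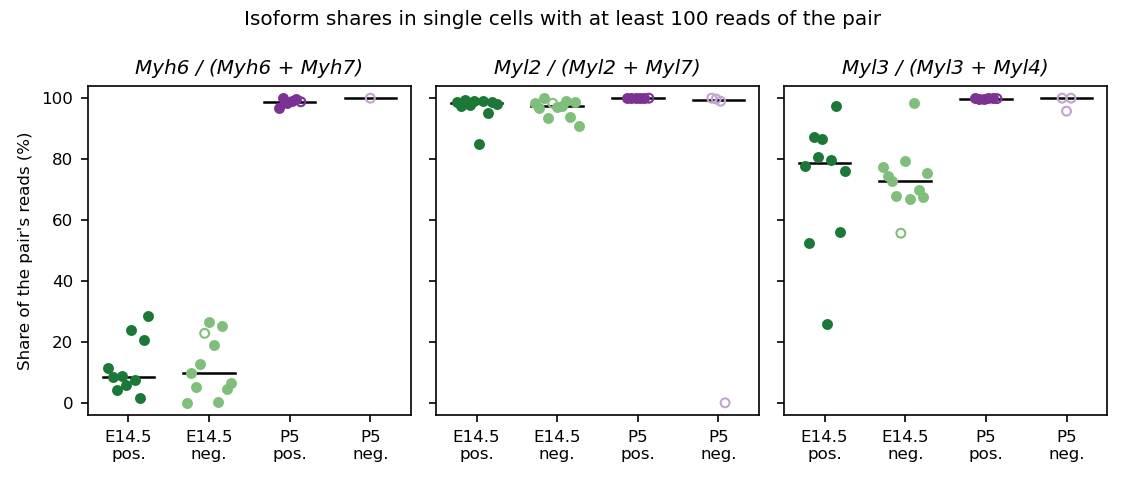
Share of the first-named gene in the reads of each pair, in percent, for cells with at least 100 reads of the pair. Each point is 1 cell, open points are cells not led by cardiomyocyte markers, and lines are medians. Myh6 shares fill 0 to 28.4% at E14.5 and 96.9 to 100% at P5, whereas the Myl3 shares of E14.5 cells spread from 25.7% to 98.4%.

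The second comparison asks whether myosin genes differ between embryonic cells with and without the geminin reporter. At E14.5 the 6 genes were at similar levels in positive and negative cells, and none was 2-fold apart, while 22.4% of 12633 genes were at least 2-fold higher in positive cells and 29% at least 2-fold lower. All 20 mitotic genes were at least 2-fold higher in positive cells, with a median log2 ratio of 4.75. Their summed level separated the groups but for N24, a negative cell at 2445 CPM, above the positive cell G2 at 967 CPM. The positive cells had a median of 8615 CPM and the negative cells one of 65.7 CPM. None of the 10 cardiomyocyte markers was 2-fold apart, and Tnnt2 stood at 4323 and 4295 CPM.

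Myh6 ranged from 0 CPM (N3) over a median of 168 CPM to 869 CPM (N21) in the 11 negative cells. The log2 ratio of positive to negative cells was -0.40 for Myh6 (-0.42 to -0.38). Myh7 had a median of 2016 CPM in negative cells and a ratio of 0.03 (0.02 to 0.03). Myl2 ranged from 1714 CPM (N3) over 4578 to 10640 CPM (N8), with a ratio of 0.30 (0.30 to 0.30). Both groups overlapped over most of their ranges for all 6 genes. Myl7 ranged from 3.82 CPM (N7) over 103 to 814 CPM (N30), with a ratio of -0.13 (-0.15 to -0.11). Myl3 ranged from 173 CPM (N3) over 1652 to 3894 CPM (N8), with a ratio of 0.02 (0.02 to 0.03). Myl4, the gene with the largest difference here, ranged from 19.7 CPM (N24) over 665 to 1833 CPM (N8), and its ratio was -0.64 (-0.65 to -0.62).

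These small ratios depended on which cells were compared. Cell titles carry numbers from 1 to 10 or from 21 to 30, whose meaning the labels do not give, and 5 numbers occur in both groups. The P5 titles begin with L1 (2 cells, 1 of each group) or L2 (10 cells), also with no meaning given. Among cells numbered 1 to 10 all 6 ratios were negative, with Myl3 and Myl4 both at -1.52, Myl7 at -0.93, Myl2 at -0.77, Myh6 at -0.44 and Myh7 at -0.32. Among cells numbered 21 to 30 Myl2 was at 0.69, Myl3 at 0.47, Myh7 and Myl7 at 0.20, Myl4 at -0.27 and Myh6 at -0.33. The sign of Myh7, Myl2, Myl3 and Myl7 thus differed between the number ranges, and that of Myh6 and Myl4 did not. The ranges also differed in depth. Positive cells had 8.40 to 12.8 M reads with numbers 1 to 10 and 16.8 to 38.5 M with numbers 21 to 30. Negative cells had 5.99 to 18.7 M and 12.4 to 34.4 M. Summed mitotic genes of positive cells were 967 to 11018 CPM and 9912 to 11671 CPM. Whether depth or cycle state bears on the signs was not tested. Single cells mattered as well, since Myl4 was at -1.25 without G28 and Myl7 at -1.06 without G27. Without N24 the ratios were -0.58 for Myh6, -0.03 for Myh7, 0.24 for Myl2, -0.28 for Myl7, -0.04 for Myl3 and -0.82 for Myl4. With edgeR TMM factors, which raised the ratios of this comparison by 0.17, Myl7 was at 0.04.

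The shares also overlapped. Myh6 made up 14.2% (14.1 to 14.3%) of heavy chain reads in negative cells, from 0% (N3) over a median of 9.75% to 26.5% (N21). N3 had no Myh6 read in 5.99 M reads although it had 967 CPM of Myh7, and N24 had 2.02 CPM of Myh6, a share of 0.145%. The Myl2 share was 95.9% (95.8 to 95.9%), from 90.8% (N30) to 99.9% (N7). The Myl3 share was 71.3% (71.2 to 71.5%), from 55.7% (N10) over a median of 72.7% to 98.4% (N24). Without N10, the cell led by fibroblast and mural markers, the Myh6 share was 13.7% and the Myl3 share 72.3%. The ratios of positive over negative cells were then -0.40 for Myh6, -0.04 for Myh7, 0.22 for Myl2, -0.25 for Myl7, -0.06 for Myl3 and -0.65 for Myl4.

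Across the 20 E14.5 cells led by cardiomyocyte markers, cells with a larger Myh6 share tended to have a larger Myl4 share. Pearson's r was 0.51 and Spearman's rho 0.49, and without G29 and N21, the cells farthest from the median Myh6 share, they were 0.70 and 0.65. Without G10 and G2, the cells farthest from the median Myl4 share, they were 0.52 and 0.49. With single cells left out, r ran from 0.42 (without G10) to 0.59 (without N21) and rho from 0.41 (without G5) to 0.58 (without N21). Within the positive cells r was 0.63 and rho 0.81, and within the negative cells 0.37 and 0.27. For the Myl7 and Myl4 shares r was 0.58 over the 20 cells and 0.12 without G10 and N30. The Myh6 share and the summed mitotic genes had an r of 0.05, and the Myh6 share and the total reads an r of 0.14. G27 and N24 were at the low end of both, with Myh6 shares of 1.58% and 0.145% beside Myl4 shares of 2.60% and 1.62%. G10 was high in both, at 23.9% and 74.3%. These are descriptions of cells whose animals are not named. The points share no library, but both shares of a point come from the same library.

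**Figure D4:**
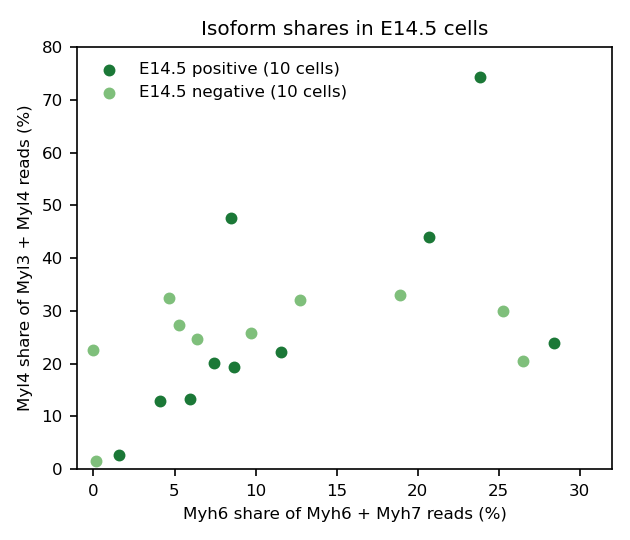
Myl4 share of Myl3 and Myl4 reads against the Myh6 share of Myh6 and Myh7 reads, both in percent, in the 20 E14.5 cells led by cardiomyocyte markers. Each point is 1 cell. The cells at the low end of both axes are G27 and N24, and the highest Myl4 share belongs to G10.

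Levels of different genes were compared per kilobase (kb) of coding length, which runs from 498 bases for Myl2 to 5814 bases for Myh6. In E14.5 positive cells the order of summed CPM per kb was Myl2 (12043), Myl3 (3019), Myl4 (812), Myl7 (367), Myh7 (349) and Myh6 (43.1). In P5 positive cells the order was Myl3 (33890), Myl2 (20254), Myh6 (1428), Myl4 (31.5) and Myh7 (13.7), with Myl7 at 0. L2P8 set the order of the first pair at P5, since Myl2 exceeded Myl3 per kb in 4 of the 5 P5 cells led by cardiomyocyte markers, and without L2P8 the sums were 15996 for Myl2 and 12419 for Myl3. At E14.5 Myl2 exceeded Myl3 in all 21 cells. Neighbours such as Myl7 and Myh7 at E14.5 overlapped across cells. G27, with 60.4% of the E14.5 positive Myl7 reads, had 912 CPM per kb of Myl7 and 532 of Myh7, and G10 had 794 and 236. In every other E14.5 positive cell Myh7 exceeded Myl7 per kb. How evenly amplified reads cover a transcript is not known here, so these orders hold for reads per coding length.

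The balance of the light chains differed between the ages. Essential over regulatory chains, as a ratio of CPM per kb, was 0.295 in the median E14.5 positive cell (0.148 to 0.384), 0.418 in the median negative cell (0.106 to 0.556) and 0.903 in the median P5 positive cell (0.700 to 2.82). All 6 P5 positive cells, L2P12 included, stood above all 21 E14.5 cells. Regulatory over heavy chains did not separate the ages, with medians of 25.2, 22.7 and 15.7. Together the 6 genes took 0.733% of the reads of the median E14.5 positive cell, 0.945% of the negative and 2.56% of the P5 positive, where single cells ran from 0.00639% (L2P12) to 8.70% (L2P8).

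**Figure D5:**
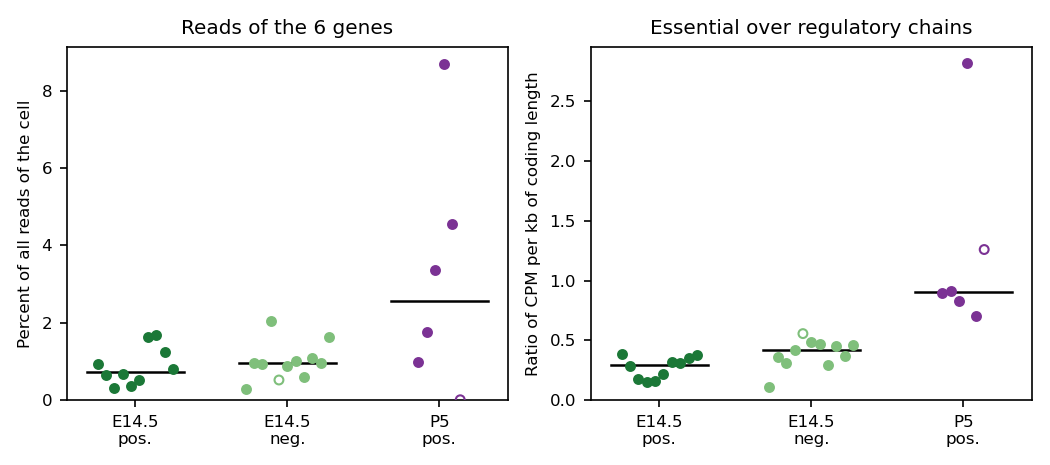
Percent of all reads of a cell that fall on the 6 genes (left) and the ratio of essential (Myl3 and Myl4) to regulatory (Myl2 and Myl7) light chains in CPM per kb of coding length (right). Each point is 1 cell, open points are cells not led by cardiomyocyte markers, and lines are medians. The ratio is 0.700 or more in every P5 positive cell and 0.556 or less in every E14.5 cell.

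In P5 negative cells the myosin genes were at low levels or at 0. P5 positive cells exceeded them at least 2-fold in 5 of the 6 genes, as in 34.2% of 11567 genes, and were at least 2-fold lower in 1, Myl7, as in 39.4% of genes. Summed Myh6 was 5.75 CPM, Myl2 24.1, Myl3 60.4 and Myl4 2.24 CPM, and Myh7 had no read in 83.0 M reads. The log2 ratios of P5 positive over negative were 10.50 for Myh6, 8.71 for Myl2, 8.42 for Myl3 and 3.02 for Myl4, and Myh7 was at least 2192-fold higher. All 10 cardiomyocyte markers were higher in the positive cells too, with a median of 11.89, and all 7 endothelial markers were lower, with a median of -2.16. Single cells set several of these values. L1N3 held 96.0% of the Myh6 reads of the negative cells, and without it the Myh6 ratio was 15.02. Without L2N7 the ratios of Myl3 and Myl4 were 10.36 and 9.96, and without L2P8 those of Myh6, Myl3 and Myl4 were 9.47, 6.98 and 2.14 and the log2 bound of Myh7 went from 11.10 to 9.65. Without L2N7 Myh6 was at 9.91 and the bound of Myh7 at 10.49.

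Compared with E14.5 negative cells, all 6 genes were at least 2-fold lower in P5 negative cells, as were 41.7% of 12552 genes, and none was higher, where 33.6% of genes were. The log2 ratios were -5.84 for Myh6, -7.66 for Myl2, -4.91 for Myl3, -8.35 for Myl4 and -1.39 for Myl7. Myh7 was at least 55060-fold lower. Here as well Myh6 was at -10.37 without L1N3, while Myl3 was at -6.85, Myl4 at -15.28, Myh6 at -5.26, Myl7 at -0.79 and the bound of Myh7 at -15.14 without L2N7. This comparison shares the E14.5 negative cells with the second comparison and the P5 negative cells with the third, and all 10 cardiomyocyte markers were also lower.

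P5 cells not led by cardiomyocyte markers had low counts of the ventricular forms, with isoform shares that differed from cell to cell. L2P12 had 253 reads of Myh6 and 3 of Myh7, 464 of Myl2 and none of Myl7, and 717 of Myl3 and 1 of Myl4. These were 0.190% (Myh6), 0.158% (Myl2) and 0.240% (Myl3) of the median of the other 5 P5 positive cells, beside 0.148% for Tnnt2 and 0.231% for Actc1. L1N3 had 458 reads of Myh6 and none of Myh7, at 1.09% of that median for Myh6, 0.405% for Myl2 and 0.639% for Myl3. Actc1 was at 0.00735% of its median in the same cell. L2N7 differed from both, with 185 Myl4 reads of the 4336 reads of Myl3 and Myl4, a share of 4.27%. Its Myl4 level was 65.0% of the median of the 5 cells, beside 1.10% for Myl3 and 0.00357% for Myh6. Reads of Myl7, absent from P5 positive cells, were present in L2N7 (3 reads), L2N9 (5) and L2N10 (4). The part of RNA from other cells in these counts was not tested.

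Nearly all Myl7 reads of P5 cells came from 1 cell. L2N12 held 6639 of the 6651 Myl7 reads of the P5 negative group, 394 CPM, and had 1 read each of Myl2, Myl3, Myl4 and Myh6. That cell also had 294 CPM of Tnni1, with Tnnc1, Actc1 and Ttn at 0 and 49.8 CPM of Tnnt2. Among atrial genes it had Nr2f2 at 242 CPM and Stard10 at 38.5 CPM, with Nppa, Bmp10, Gja5 and Tbx5 at 0. Nr2f2 was higher in another P5 negative cell, at 342 CPM. Its epicardial markers Msln and Wt1 stood at 1958 and 706 CPM, Upk3b at 527 and Krt19 at 19.6 CPM. Of the fibroblast and mural markers, Col1a2 was at 8983, Dcn at 5381, Col3a1 at 4706 and Col1a1 at 129 CPM, with Postn, Pdgfra and Cspg4 at 0. Without L2N12 the Myl7 ratio of P5 negative over E14.5 negative was -10.18, and the bound of P5 positive over negative was -2.48, against -11.27 with all cells and -11.87 without L2N7.

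Other genes of the myosin system were read from lists, each given as the number at least 2-fold higher or lower in P5 positive over E14.5 positive cells, beside a median log2 ratio of -0.39 over all genes. Of the 4 other striated muscle chains with enough reads, none was higher and 3 were lower, but all were low. The fast skeletal essential chain Myl1, at 57.4 and 43.4 CPM at P5 and E14.5, was the only one above 10 CPM in both groups, and its median cell was at 0.0666 CPM at P5 and 20.1 at E14.5. Of 7 smooth muscle and nonmuscle chains 4 were higher and none lower, with a median of 1.18. This count depended on L2P12, the endothelial marker cell. With L2P12 left out, Myl12b, Myh9 and Myh10 were at least 2-fold lower, at log2 ratios of -2.17, -5.61 and -1.87. Myl6, at 0.60, was then short of 2-fold. Myl12a, at 1.01, and Myh14 stayed at least 2-fold higher, and Myl9, short of 2-fold with all cells, passed that line. The nonmuscle regulatory chain Myl12a had 1495 CPM at P5 and 658 at E14.5 and the nonmuscle essential chain Myl6 had 169.5 and 34.1 CPM, with 51.9 CPM at P5 without L2P12, while nonmuscle heavy chain Myh10 stood at 116 and 142 CPM. All 7 endothelial markers were also higher at P5, with summed endothelial markers of 13416 CPM in L2P12 and at most 15.3 CPM in the other 5 cells. Without L2P12, Myl12a was at 1329 and Myh10 at 38.8 CPM at P5. The counts of all these lists rest on summed reads, in which single cells weigh heavily. In both kinases and phosphatase subunits counted as higher in the sum, and in 2 of the 4 smooth muscle and nonmuscle chains, the median P5 cell was not above the median E14.5 cell.

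Of 7 light chain kinases and phosphatase subunits 2 were higher and 4 lower. The cardiac kinase Mylk3, which phosphorylates Myl2, had 87.9 CPM at P5 and 93.0 at E14.5, and Mylk4 had 16.8 and 0.886 CPM. All P5 reads of Mylk4 came from L2P3, at 101 CPM, so its median P5 cell was at 0. Of 9 thick filament partners 4 were higher and 4 lower. The giant scaffold Ttn was lower at P5 (1102 against 3454 CPM), whereas Mybpc3, the cardiac myosin binding protein, was higher (971 against 452 CPM, and 691 CPM without L2P10). The M band gene Myom2 stood at 29.4 against 0.0380 CPM. Of 11 myosin folding and turnover genes 3 were higher and 4 lower. The chaperone Unc45b was at 158 and 129.6 CPM, with median cells at 108 and 111 CPM, its partner Hsp90aa1 at 2095 and 4976 CPM, and the methyltransferase Smyd2 at 557 and 86.6 CPM.

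Of 18 transcription factors known to act on myosin genes, 4 were higher and 8 lower, with a median of -0.74. Tbx20, a cardiac T-box factor, showed the largest summed level at E14.5 among those lower, at 646 CPM against 36.7 at P5. The thyroid hormone receptor genes were low, with Thra at 2.05 and 1.52 CPM and Thrb at 0 and 5.41 CPM at E14.5 and P5. Tead1, whose protein binds M-CAT elements, was at 349 and 285 CPM. Of 7 atrial genes 3 were higher in the sum and 4 lower, and a single cell held nearly all P5 reads of each higher gene. L2P12, the endothelial marker cell, held 99.7% of the P5 reads of Kcna5 and 99.9% of those of Nr2f1. Without it both were at 0.0431 CPM at P5, against 0 CPM (Kcna5) and 1.01 CPM (Nr2f1) at E14.5. The natriuretic peptide gene Nppa summed to 209 CPM at P5 and 31.9 at E14.5, but L2P3 held 99.9% of the P5 reads, and the median cell was at 0 CPM at P5 and at 3.42 at E14.5. Of 5 ventricular genes 1 was higher in the sum, Irx4 at 103 against 29.1 CPM, and 2 were lower, among them Hey2 at 22.7 against 237 CPM. L2P8 held 81.7% of the P5 reads of Irx4, whose median cell was lower at P5, at 6.38 against 23 CPM.

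Genes whose levels followed each member most closely over the 25 cells led by cardiomyocyte markers were ranked by Spearman's rho of log2(CPM + 1) among 5113 genes. For Myl3 these were the ATP synthase subunit Atp5g1, the ribosomal protein Rps10 and the cytochrome oxidase subunit Cox6a1, each at 0.95, and for Myl2 they were Eif4ebp1 (0.91), the cardiac troponin C gene Tnnc1 (0.91) and Tmem160 (0.90). For Myh6 they were Ogdh (0.80) and Ndufv3 (0.79), which encode mitochondrial enzyme subunits, and Ehd4 (0.78). For Myh7 they were Rpl7 (0.82), Efnb3 (0.76) and Psme1 (0.76). For Myl4 they included Gsn (0.75) and Spty2d1 (0.73), and for Myl7 Uggt1 (0.80) and Gng2 (0.79). These 25 cells fall into 2 ages, so the difference between ages can be part of a value. Within the 20 E14.5 cells the pairs named here ran from 0.57 for Spty2d1 to 0.93 for Rps10.

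Among the members themselves, Myl2 and Myl3 had a rho of 0.90 over the 20 E14.5 cells, and 0.87 over all 25 cells. Myh7 had 0.72 with Myl2 and 0.76 with Myl3 within E14.5 cells, but 0.13 and -0.03 over all 25. The 3 pairs of Myh7, Myl4 and Myl7 were at 0.68 to 0.79 over all 25 cells and at 0.41 to 0.61 within E14.5 cells. Myh6 and Myh7 had a rho of 0.38 within E14.5 cells and of -0.28 over all 25 cells. These values describe cells whose levels share the total reads of each library.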

How the data were processed

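The deposited table holds raw read counts per gene for 33 single cells, as whole numbers that sum to a different total in each cell. The submitters' processing notes name CASAVA 1.8.2, STAR 2.4.0j, HTSeq 0.6.1p1 and the build mm10, without roles. The gene annotation, the strand setting and the handling of reads shared between genes are not given in the sources used here. No column of another sample was present.

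From these counts, CPM per cell and per group (reads summed over cells, divided by the summed total) were computed in Python 3.11.15 with numpy 2.4.6, scipy 1.17.1 and pandas 2.3.3. Intervals are exact at 95% (Poisson for CPM, Clopper-Pearson for shares and ratios) and cover counting error only. Where 1 group had no read, the ratio is a bound against 3 reads over the group. Genes with at least 10 reads over both groups were counted as past or short of a 2-fold difference, and list medians add 0.5 read to each side. Shares per cell need 100 reads of the pair. Coding lengths and sequences come from GENCODE M21. The calculation was tested on simulated data.

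Since each sample is 1 cell and no animal is named, each group is 1 sample and no p-value was made. Cells were not filtered, and doublets were not called because each sample is given as 1 cell. Whether a library with markers of more than 1 cell type, such as N10, holds more than 1 cell was not tested. A cell is led by cardiomyocyte markers where their summed CPM exceeds that of each other list (endothelial, fibroblast and mural, smooth muscle, red blood cell, leukocyte and epicardial). Of 9 red blood cell markers only 4 were found under their names in the table. Named genes are the 6 myosin genes, list members, and for each myosin gene the 3 most alike genes with a mean of at least 20 CPM. Some genes that this rule names are not reported here. The genes and lists were chosen with earlier results of these data known. Alternatives were TMM factors (edgeR 4.0.16) and DESeq2 1.42.0 size factors in R 4.3.3, totals without the 20 most read genes, cells thinned to 8671357 reads (6 cells left out), equal weights, coding length, title numbers, cells led by cardiomyocyte markers, and leaving out each cell. Across genes the highest Pearson r of log2 CPM between any pair of cells was 0.867, so no pair of cells was counted as 1 sample.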

Additional observations from a re-analysis of the deposited data

Results flagged for a closer look

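The cells of a group were taken as its values, although they are not replicates, within groups of 4 to 10 cells. In 7 of 22 combinations of a group with a level or share, a cell lay beyond Dixon's 95% limit. Chance alone would flag about 1 in 20, or 1.10 of 22, only for independent values with a normal distribution. Many levels and shares here are skewed, and combinations share cells and reads, so no excess over chance is drawn from the 7. The 11 E14.5 negative cells were too many for this limit and were not examined. Among E14.5 positive cells, G28 had 1377 CPM of Myl4, with G25 next at 749.6 CPM. G10 had a Myl2 share of 85.0%, the lowest of its group, with G27 next at 95.2%. Among P5 positive cells, L2P8 had 52861 CPM of Myl3, with L2P10 next at 18301 CPM.

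The other 4 are P5 negative cells, none of which is led by cardiomyocyte markers. L1N3 had 64.8 CPM of Myh6, with L2N4 next at 2.14 CPM. L2N7 had 6.52 CPM of Myl4, with L2N12 next at 0.0593 CPM. L2N12 had 394 CPM of Myl7, with L2N9 next at 0.454 CPM, and a Myl2 share of 0.0151%, with L2N9 next at 99.0%. Both values of L2N12 rest on the same Myl7 reads.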

How the results depend on the processing

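No paired analysis was possible because no result comes from a test between groups; 5 title numbers occur in both E14.5 groups, but nothing says that they link cells. No ratio past 2-fold changed sign under any alternative. The main regulatory chain of P5 negative cells did change, as the Myl2 share was 23.1% in summed reads, 74.7% with equal weights and 99.4% without L2N12. The signs of 23 of 24 ratios were kept with TMM factors and of all 24 with DESeq2 size factors. These moved the ratios by up to 0.30 and 0.15 (log2). Thinned cells, which leave out L1N3, moved them by up to 5.51 (Myh6 of P5 negative over E14.5 negative cells, -11.35 against -5.84), equal weights by up to 1.22 (Myh6 of P5 positive over negative cells, 9.28 against 10.50) and title numbers 1 to 10 by up to 1.54 (Myl3). With thinned or equally weighted cells 3 of 24 signs changed, all among the E14.5 comparisons of positive with negative cells. Among E14.5 cells with title numbers 1 to 10, 2 genes were at least 2-fold lower in positive cells, against 0 in all cells.

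In E14.5 positive cells the Myh6 share was 12.1% with every cell weighted alike and 12.4% in thinned cells. The Myl2 share was 96.8% with equal weights, 97.0% by coding length and 97.1% thinned, and the Myl3 share 72.0%, 78.8% and 76.7%. In E14.5 negative cells the Myh6 share was 12% with equal weights, 15.7% thinned and 13.7% without N10. The Myl2 share was 96.7% with equal weights, 96.1% by coding length, 95.1% thinned and 95.7% without N10, and the Myl3 share 73.3%, 70.2%, 71.7% and 72.3%. The P5 positive Myh6 share was 98.8% with equal weights. The cause of these moves was not tested.

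With each cell left out in turn, P5 positive over E14.5 positive cells had 2 to 3 genes higher and 3 lower, and E14.5 positive over negative cells 0 higher and 0 to 1 lower (Myl7 without G27, Myl4 without G28). P5 positive over negative cells had 5 higher and 1 lower, and P5 negative over E14.5 negative cells 0 higher and 5 to 6 lower. The Myh6 share ran from 8.20 to 15.7% in E14.5 positive, 12 to 15.9% in E14.5 negative and 98.9 to 99.3% in P5 positive cells. The Myl2 share ran from 96.5 to 98.0%, 95.3 to 96.7% and stayed at 100%, and the Myl3 share from 68.3 to 85.8%, 69.7 to 72.3% and at 99.9%. In P5 negative cells, where 1 to 4 cells could be used, the Myl2 share ran from 12 to 99.4%, the Myl3 share from 96.0 to 99.9% and the Myh6 share stayed at 100%. As a limit of detection, depth bears on near absent genes, since the floor of 3 reads is 0.0153 to 0.0362 CPM over a group. In a single cell that floor reached 1.18 CPM (L1P5). Total reads (log2) and the percent of reads on the 6 genes had r 0.45 and rho 0.54 over the 20 E14.5 cells led by cardiomyocyte markers. Within positive cells these were 0.73 and 0.56, and within negative cells 0.17 and 0.31. The cause was not tested.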
